A study of Homo sapiens with 4 samples.

Results

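The 36 genes described here drive or mark cell division: mitotic cyclins and their kinase, mitotic kinases, the spindle checkpoint, the kinetochore, spindle motors, and the proliferation genes TOP2A, MKI67 and FOXM1. They were given by symbol, and each was found once in the deposited table through its Ensembl ID, 36 of 43714 genes. All 36 passed the filter on low counts, as did 30952 genes in all. The comparison was between a reporter-positive and a reporter-negative line of MDA-MB-231, an established human breast cancer cell line that is triple negative, basal and mesenchymal-like. Both lines stably carry the 7TGP plasmid, in which 7 TCF-binding sites drive EGFP and so report on canonical Wnt signaling. Both were selected with puromycin at 3 ug/mL, grown in DMEM with 10% fetal bovine serum and taken through 8 rounds of sorting and expansion. The reporter-positive line ended with more than 80% EGFP-positive cells, and the reporter-negative line, the control, with more than 95% EGFP-negative cells. RNA sequencing covered 2 libraries of each line, made from 1 ug of total RNA each. The sample labels used here do not tell how the libraries were batched. Each reporter state is thus a single sorted line, and a difference between states and a difference between these lines cannot be told apart. Whether separate cultures stand behind the libraries of a line is not in the labels. Each p-value thus reflects only the spread between these particular libraries, estimated with borrowing across genes, and that spread may be technical.

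As background, entry into mitosis is driven by CDK1 bound to cyclin B, with Polo-like and Aurora kinases acting beside it on centrosomes, chromosomes and the spindle. The spindle checkpoint holds the anaphase-promoting complex (APC/C) inactive until kinetochores are attached to microtubules. The complex, with its activator CDC20, then marks securin and cyclin B for destruction, and separase cuts cohesin. Most of these genes are transcribed late in the cell cycle, through promoter elements called the cell cycle genes homology region (CHR) and the CCAAT box, bound by the MuvB complexes with B-MYB and FOXM1 and by NF-Y. Their RNA level in a culture therefore follows the share of cells in G2 and mitosis as well as the level in each cell.

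Promoters are shown because most of the members share these elements, whichever way they moved between the lines. RefSeq promoters on GRCh38.p14, from 250 bases before to 50 after the annotated start, were matched for 29 of the 36 genes by symbol. AURKA, BUB3, TTK, BIRC5, TPX2, UBE2C and FOXM1 had no entry. The 130 bases before the start are given for CCNB1 and CCNB2, the paired B-type cyclins that moved in opposite directions, for CDC20, KIF4A and ESPL1, which rose, and for PLK1, which did not pass the test. They run 5′ to 3′, and capitals mark a CCAAT box (CCAAT, or ATTGG where it lies on the other strand) or a CHR (TTTGAA or TTCGAA, with TTCAAA the other strand of the first).
CCNB1 (chr5:69167020-69167149, forward strand): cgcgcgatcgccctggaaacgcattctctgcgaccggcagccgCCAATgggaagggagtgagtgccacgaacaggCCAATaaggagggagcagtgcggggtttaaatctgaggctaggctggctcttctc
CCNB2 (chr15:59105016-59105145, forward strand): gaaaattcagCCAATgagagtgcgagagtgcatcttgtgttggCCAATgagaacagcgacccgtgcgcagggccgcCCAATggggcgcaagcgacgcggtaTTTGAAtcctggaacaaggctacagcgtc
CDC20 (chr1:43358851-43358980, forward strand): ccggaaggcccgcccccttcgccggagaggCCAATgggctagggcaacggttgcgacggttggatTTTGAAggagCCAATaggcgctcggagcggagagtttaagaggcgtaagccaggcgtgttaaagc
PLK1 (chr16:23678759-23678888, forward strand): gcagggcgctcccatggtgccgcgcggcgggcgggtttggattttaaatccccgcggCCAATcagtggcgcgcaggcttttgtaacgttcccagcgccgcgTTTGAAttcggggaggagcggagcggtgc
KIF4A (chrX:70289974-70290103, forward strand): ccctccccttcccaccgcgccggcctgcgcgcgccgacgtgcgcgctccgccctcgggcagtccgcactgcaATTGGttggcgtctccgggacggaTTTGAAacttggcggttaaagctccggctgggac
ESPL1 (chr12:53268169-53268298, forward strand): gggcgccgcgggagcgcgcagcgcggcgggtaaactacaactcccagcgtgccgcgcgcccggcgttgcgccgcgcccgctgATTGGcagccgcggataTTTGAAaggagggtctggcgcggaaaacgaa

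A CHR (TTTGAA or TTCGAA, either strand) stood in 20 of the 29 members' promoters, or 69.0%, against 16.6% of all 27305 promoters of the same length. TTTGAA alone was in 19 of the 29 (65.5%, against 15.4% of all promoters) and TTCGAA in 2 of the 29 (6.90%, against 1.45%). A CCAAT box was in 21 of the 29 (72.4%, against 35.7%), and 2 or more of them in 12 (41.4%, against 11.3%). Both elements together were in 16 of the 29 (55.2%, against 6.58%). Within 50 bases of the start, the CHR stood in 17 of the 29 (58.6%, against 5.05%). The promoters of CCNB1, CCNA2, AURKB, KIF20A and PTTG1 held a CCAAT box without a CHR, and those of CDC25B, CDC25C, CENPE and KIF2C held neither. The only overlap of a CHR with a CCAAT box was in MKI67. Of the 17 matched members that rose, 12 held a CHR, as did the 1 matched member that fell, CCNB2, and 7 of the 11 that did not pass. The shown CCNB1 and CCNB2 windows both carry spaced CCAAT boxes, with a CHR in the second alone. A match says only that these letters are in the window, and no match only that they are absent from the window searched. Other forms of the CHR were not searched. Each gene symbol kept a single promoter window, so any other annotated starts of a gene were not searched either.

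Most of the mitosis and spindle genes were slightly higher in the reporter-positive line. At an adjusted p under 0.05 (edgeR's quasi-likelihood test, Benjamini-Hochberg adjustment over all 30952 genes), 19 of the 36 rose, 2 fell (CCNB2 and TPX2) and 15 did not pass. The 19 are 52.8% of the members, where 11.6% of all tested genes rose, and the 2 are 5.56%, where 10.9% of all tested genes fell. Among the 9402 protein-coding genes at a like level, from 13.1 to 309 CPM (counts scaled to library size), 17.6% rose and 17.8% fell. The changes were small. The median log2 fold change of the 36 was 0.22, or 1.16-fold, with quartiles of 0.10 and 0.33, against −0.005 for all tested genes, with quartiles of −0.22 and 0.21. The log2 fold change was above 0 in 33 of the 36 genes, 91.7%, against 49.4% of all tested genes. In these bulk samples, more cells in division and more RNA per dividing cell cannot be told apart.

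Summed over the 36 genes, the level was 3079 and 3271 CPM in reporter-positive libraries 1 and 2, against 2807 and 2798 CPM in reporter-negative libraries 1 and 2. The means were 3175 ± 136 CPM in the reporter-positive line and 2802 ± 6.001 CPM in the reporter-negative line (SD, n = 2 each). Both reporter-positive libraries thus lay above both reporter-negative ones, with library 2 the higher. Gene by gene, the libraries of the lines did not overlap in 33 members. Both reporter-positive libraries were above both reporter-negative ones in 31, or below both in 2, where 28.2% and 29.5% of all tested genes lay wholly above or wholly below. CDC25B, UBE2C and FOXM1 overlapped. Reporter-positive library 2 exceeded library 1 of the same line in 28 of the 36 genes, by a median log2 of 0.11, against 48.8% of all tested genes. In the reporter-negative line, library 2 was the higher in 15 of the 36, against 48.2% of all tested genes. The spread within a line was at most 15.8% of the mean (SD) for any member, and the median standard error of the log2 fold change was 0.075.

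**Figure D1:**
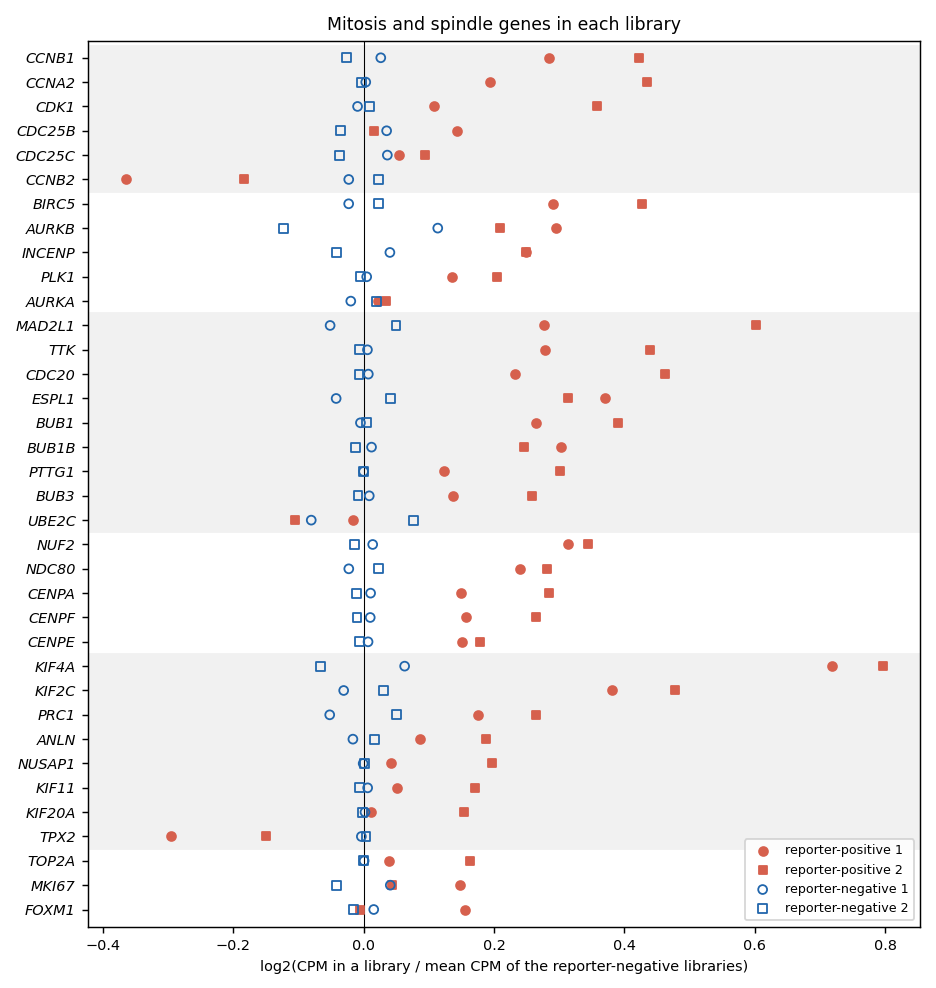
Level of each of the 36 genes in each library, as log2 of its CPM over the mean CPM of the reporter-negative libraries (horizontal axis), with 1 row per gene grouped by role. Filled and open symbols mark the libraries of the reporter-positive and reporter-negative lines, and the members' median lies at 0.15 and 0.25 in the reporter-positive libraries, against 0.004 and −0.004 in the reporter-negative libraries.

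How many genes passed depended on single libraries. Without reporter-negative library 1 the test called 9 members higher and 0 lower (7.16% and 6.22% of all genes tested), and without reporter-negative library 2 it called 7 higher and 0 lower (7.45% and 7.05%). Without reporter-positive library 1 it called 27 higher and 1 lower (14.5% and 13.8%), and without reporter-positive library 2 it called 18 higher and 2 lower (11.2% and 11.5%). A line left with 1 library was taken to vary like the other. The fold changes themselves moved little without a reporter-negative library: the members' median log2 fold change was 0.22 without library 1 and 0.20 without library 2, against 0.22 with all 4. CCNA2 was at 0.33 and 0.31 against 0.32, and BUB1B at 0.29 and 0.26 against 0.27. Without reporter-positive library 1 or 2 the median was 0.26 or 0.15. CDC20, TTK, MAD2L1, BIRC5, KIF2C and KIF4A were called higher with all 4 libraries and with each one left out. These 6 are 16.7% of the members, where 5.74% of all tested genes met the same condition. No member was lower in all 5 fits, where 4.92% of all tested genes were. Scaling by total counts in place of TMM left 10 members higher and 2 lower, where 7.33% of all tested genes rose and 13.0% fell. The members' median log2 fold change was then 0.13 and that of all tested genes −0.09, and higher calls were 36.03% of all calls, against 51.5% with TMM. The calls lost with it were those of CDK1, AURKB, BUB1B, INCENP, CENPA, NDC80, PTTG1, PRC1 and ESPL1. CDK1, AURKB and PTTG1 also did not pass with DESeq2, nor TPX2 with RLE scaling, nor CENPA and PTTG1 without a count filter, nor PTTG1 with limma-voom.

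Among the cyclins, CDK1 and the CDC25 phosphatases, 3 of 6 rose, 1 fell and 2 did not pass. CCNB1, cyclin B1, the main activator of CDK1 at mitotic entry, had 104 and 114 CPM in the reporter-positive libraries, against 86.6 and 83.5 CPM in the reporter-negative libraries. CCNB1 was thus 1.28-fold higher, with no overlap (log2 fold change 0.35, standard error 0.074, adjusted p = 0.00126). CCNB2, cyclin B2, went the other way. It had 27.9 and 31.6 CPM in the reporter-positive libraries, against 35.4 and 36.5 CPM in the reporter-negative libraries, both reporter-positive libraries lying below (log2 fold change −0.27, standard error 0.079, adjusted p = 0.0160). CCNA2, cyclin A2, which acts in S phase and G2, had 70.9 and 83.7 CPM in the reporter-positive libraries, against 62.1 and 61.8 CPM in the reporter-negative libraries (log2 fold change 0.32, standard error 0.080, adjusted p = 0.00589). CDK1, the kinase itself, had 59.4 and 70.6 CPM in the reporter-positive libraries, against 54.8 and 55.5 CPM in the reporter-negative libraries (log2 fold change 0.24, standard error 0.081, adjusted p = 0.0395). For both genes reporter-positive library 2 was well above library 1, while the reporter-negative libraries nearly coincided. CDC25B and CDC25C, the phosphatases that remove inhibitory phosphates from CDK1, had log2 fold changes of 0.08 and 0.07 (adjusted p = 0.501 and 0.652). Leaving out reporter-negative library 1 removed the calls of CCNB2, CCNA2 and CDK1 (adjusted p 0.0687 to 0.244). The calls of CCNB1, CCNB2, CCNA2 and CDK1 (adjusted p 0.0805 to 0.200) were lost without reporter-negative library 2. The call that did not hold without reporter-positive library 1 was that of CCNB2 (adjusted p = 0.0694). With reporter-positive library 2 left out, CDK1 (adjusted p = 0.333) did not pass.

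Of the mitotic kinases and chromosomal passenger subunits, 3 of 5 rose. BIRC5, survivin, a passenger subunit that also opposes apoptosis, had 47.4 and 52.1 CPM in the reporter-positive libraries, against 38.1 and 39.3 CPM in the reporter-negative libraries. That is 1.28-fold, with both reporter-positive libraries well above (log2 fold change 0.36, standard error 0.075, adjusted p = 0.00116). INCENP, the scaffold of the passenger complex, had 72.2 and 72.1 CPM in the reporter-positive libraries, against 62.4 and 59.00 CPM in the reporter-negative libraries (log2 fold change 0.25, standard error 0.071, adjusted p = 0.0139). AURKB, Aurora B, the kinase of that complex, had 27.8 and 26.2 CPM in the reporter-positive libraries, against 24.5 and 20.8 CPM in the reporter-negative libraries (log2 fold change 0.25, standard error 0.086, adjusted p = 0.0402). The reporter-negative libraries differed more from each other for AURKB than the reporter-positive ones did, but no libraries overlapped between lines. PLK1, Polo-like kinase 1, which acts on centrosomes and in cytokinesis, had 39.4 and 41.3 CPM in the reporter-positive libraries, against 35.9 and 35.7 CPM in the reporter-negative libraries and did not pass (log2 fold change 0.17, standard error 0.073, adjusted p = 0.108). AURKA, Aurora A, which acts at spindle poles, had 58.8 and 59.3 CPM in the reporter-positive libraries, against 57.2 and 58.7 CPM in the reporter-negative libraries, a difference between lines smaller than the gap between the reporter-negative libraries (log2 fold change 0.03, standard error 0.070, adjusted p = 0.845). The call of INCENP (adjusted p = 0.110) was lost without reporter-negative library 1. The calls that did not hold without reporter-negative library 2 were those of AURKB and INCENP (adjusted p 0.321 to 0.571). PLK1 passed as higher without reporter-positive library 1 (adjusted p = 0.0233).

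The spindle checkpoint and anaphase genes held the highest share of rises, 7 of 9, with a median log2 fold change of 0.33. MAD2L1, MAD2, which binds and holds CDC20, had 23.2 and 29.01 CPM in the reporter-positive libraries, against 18.4 and 19.8 CPM in the reporter-negative libraries (log2 fold change 0.45, standard error 0.098, adjusted p = 0.00266). TTK, the kinase Mps1 that starts checkpoint signaling, had 37.1 and 41.5 CPM in the reporter-positive libraries, against 30.7 and 30.5 CPM in the reporter-negative libraries (log2 fold change 0.36, standard error 0.078, adjusted p = 0.00163). CDC20, the APC/C activator on which the checkpoint acts, had 52.2 and 61.3 CPM in the reporter-positive libraries, against 44.7 and 44.2 CPM in the reporter-negative libraries (log2 fold change 0.35, standard error 0.080, adjusted p = 0.00259). For each of these 3 genes both reporter-positive libraries stood above both reporter-negative ones, and reporter-positive library 2 was the highest of the 4. BUB1, a checkpoint kinase of the kinetochore, had 74.2 and 80.9 CPM in the reporter-positive libraries, against 61.5 and 61.9 CPM in the reporter-negative libraries (log2 fold change 0.33, standard error 0.073, adjusted p = 0.00205). BUB1B, BubR1, part of the complex that inhibits the APC/C, had 50.04 and 48.1 CPM in the reporter-positive libraries, against 40.9 and 40.2 CPM in the reporter-negative libraries (log2 fold change 0.27, standard error 0.072, adjusted p = 0.00765). Neither gene overlapped between lines, and the reporter-positive libraries lay farther apart for BUB1 than for BUB1B. ESPL1, separase, the protease that cuts cohesin, had 31.3 and 30.1 CPM in the reporter-positive libraries, against 23.5 and 24.9 CPM in the reporter-negative libraries (log2 fold change 0.34, standard error 0.077, adjusted p = 0.00236). PTTG1, securin, the inhibitor of separase, rose by a log2 fold change of 0.21 (adjusted p = 0.0464), so that the protease and its inhibitor were both higher. BUB3, the partner of BUB1 and BUB1B, had a log2 fold change of 0.20 (adjusted p = 0.0608). UBE2C, the ubiquitin-conjugating enzyme of the APC/C, had −0.06 (adjusted p = 0.679). The calls that did not hold without reporter-negative library 1 were those of BUB1, BUB1B, PTTG1 and ESPL1 (adjusted p 0.0667 to 0.276). With reporter-negative library 2 left out, BUB1, BUB1B and PTTG1 (adjusted p 0.0594 to 0.284) did not pass. PTTG1 (adjusted p = 0.256) did not pass once reporter-positive library 2 was left out. BUB3 passed as higher without reporter-positive library 1 (adjusted p = 2.87e-05).

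At the centromere and kinetochore 3 of 5 rose. NUF2, a subunit of the NDC80 complex that binds microtubules, had 52.6 and 53.7 CPM in the reporter-positive libraries, against 42.7 and 41.9 CPM in the reporter-negative libraries (log2 fold change 0.33, standard error 0.071, adjusted p = 0.00163). NDC80 itself had 50.2 and 51.7 CPM in the reporter-positive libraries, against 41.9 and 43.2 CPM in the reporter-negative libraries (log2 fold change 0.26, standard error 0.071, adjusted p = 0.0108). These partners within 1 complex were both higher, and the libraries of each line lay within 2 CPM of each other. CENPA, the histone H3 variant that marks centromeres, had 56.8 and 62.4 CPM in the reporter-positive libraries, against 51.6 and 50.9 CPM in the reporter-negative libraries (log2 fold change 0.22, standard error 0.073, adjusted p = 0.0363). CENPF, a large kinetochore-associated protein, had 309.7 ± 16.4 CPM in the reporter-positive and 267 ± 2.65 CPM in the reporter-negative line (SD, n = 2 each), with a log2 fold change of 0.21, and missed the threshold (adjusted p = 0.0523). CENPE, a kinetochore motor, had 0.16 (adjusted p = 0.108). With reporter-negative library 1 left out, CENPA and NDC80 (adjusted p 0.206 to 0.239) did not pass. CENPA, NDC80 and NUF2 (adjusted p 0.0676 to 0.311) did not pass once reporter-negative library 2 was left out. Dropping reporter-positive library 2 removed the call of CENPA (adjusted p = 0.130). Both genes that missed the threshold passed as higher without reporter-positive library 1 (adjusted p = 0.0118 for CENPE and 9.91e-06 for CENPF), and CENPF also did without reporter-positive library 2 (adjusted p = 0.0367).

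Of the spindle motors and microtubule factors, 3 of 8 rose, 1 fell and 4 did not pass. KIF4A, a chromosome-bound kinesin that restrains the growth of overlapping spindle microtubules, had 45.6 and 48.1 CPM in the reporter-positive libraries, against 28.95 and 26.5 CPM in the reporter-negative libraries. At 1.69-fold this was the largest change among the 36 (log2 fold change 0.76, standard error 0.077, adjusted p = 2.75e-07). KIF2C, a kinesin that takes microtubule ends apart at centromeres, had 102 and 109 CPM in the reporter-positive libraries, against 76.7 and 79.99 CPM in the reporter-negative libraries (log2 fold change 0.43, standard error 0.073, adjusted p = 1.48e-04). PRC1, which bundles the microtubules of the spindle midzone and recruits KIF4A to them, had 142 and 151 CPM in the reporter-positive libraries, against 122 and 131 CPM in the reporter-negative libraries (log2 fold change 0.22, standard error 0.074, adjusted p = 0.0376). For KIF4A and KIF2C the gap between the lines was several times the gap within a line, and for PRC1 it was closer to it. TPX2, which activates Aurora A and seeds spindle microtubules, fell: it had 105 and 116 CPM in the reporter-positive libraries, against 128 and 129 CPM in the reporter-negative libraries (log2 fold change −0.22, standard error 0.074, adjusted p = 0.0373). KIF11, the motor that pushes spindle poles apart, KIF20A, a motor of cytokinesis, NUSAP1, which bundles spindle microtubules, and ANLN, anillin, a scaffold of the contractile ring, had log2 fold changes of 0.11, 0.08, 0.12 and 0.14 (adjusted p 0.217 to 0.488). TPX2 and PRC1 (adjusted p 0.328 to 0.505) did not pass once reporter-negative library 1 was left out. Dropping reporter-negative library 2 removed the calls of TPX2 and PRC1 (adjusted p 0.207 to 0.310). KIF11, NUSAP1 and ANLN passed as higher without reporter-positive library 1 (adjusted p 0.00154 to 0.0196).

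None of the general proliferation genes passed. TOP2A, the topoisomerase that untangles chromosomes, had 306 and 334 CPM in the reporter-positive libraries, against 298 and 298 CPM in the reporter-negative libraries (log2 fold change 0.10, standard error 0.078, adjusted p = 0.412). MKI67, the Ki-67 marker of cycling cells, had 217 and 202 CPM in the reporter-positive libraries, against 202 and 190.3 CPM in the reporter-negative libraries (log2 fold change 0.10, standard error 0.075, adjusted p = 0.427). Reporter-positive library 1 was the higher of its line for MKI67 and the lower for TOP2A, and for MKI67 the nearest values of the lines round to the same CPM. FOXM1, a transcription factor of late cell cycle genes, had 32.5 and 29.1 CPM in the reporter-positive libraries, against 29.5 and 28.9 CPM in the reporter-negative libraries, with the lines overlapping (log2 fold change 0.08, standard error 0.079, adjusted p = 0.560). Their log2 fold changes of 0.08 to 0.10 lie below the members' median of 0.22. Without reporter-positive library 1 TOP2A passed as higher (adjusted p = 0.0142), and without reporter-positive library 2 MKI67 did (adjusted p = 0.0432).

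**Figure D2:**
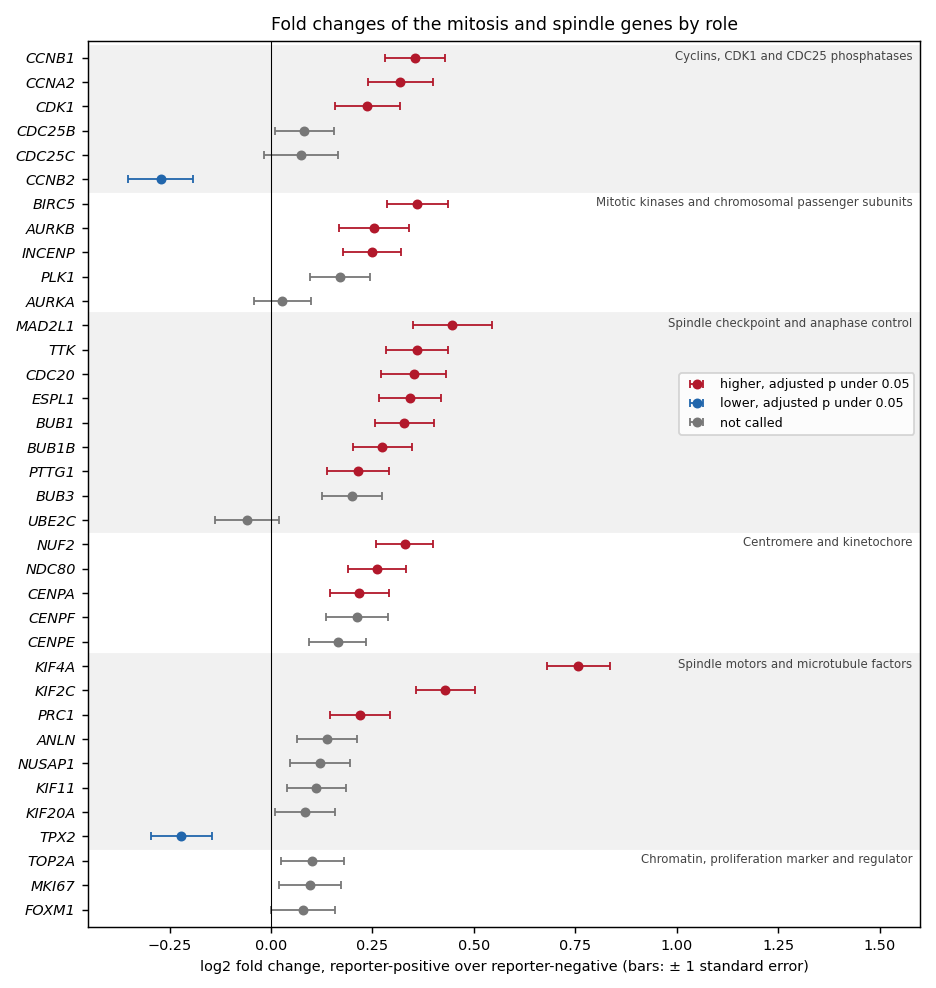
Log2 fold change of each of the 36 genes, reporter-positive over reporter-negative (horizontal axis; bars are 1 standard error), grouped by role and coloured by the outcome of the test. The checkpoint and anaphase genes lie farthest to the right as a group, KIF4A is the highest at 0.76, and CCNB2 and TPX2 are the lowest at −0.27 and −0.22.

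A check on genes nested in host genes, given below, points to counts over whole gene spans on both strands. Reads from a stretch that 2 genes share would then be counted at both and cannot be told apart. In 15 members the overlapping gene with the most counts had at least 10% of the member's own counts. That share is of the whole overlapping gene, and how many reads came from the shared stretch is not known. The stretch covered from 0.325% of the member's span, for KIF4A, to 99.5%, for PRC1. KIF4A (chromosome X, 70290090 to 70420832, GRCh38) shares 425 bp with PDZD11, which had 36.8% of its counts and a log2 fold change of 0.52 (adjusted p = 8.78e-04). KIF2C (chromosome 1, 44739818 to 44767767) shares 8731 bp (31.2% of its span) with ENSG00000225721, which had 58.02% of its counts and a log2 fold change of 0.33 (adjusted p = 0.00266). CCNB2 (chromosome 15, 59105078 to 59125045) shares 4012 bp (20.1%) with ENSG00000259732, which had 38.2% of its counts and a log2 fold change of −0.34 (adjusted p = 0.00967). In each of these pairs the overlapping gene moved in the member's direction, as also did BUB1B-PAK6 with BUB1B (log2 fold change 0.34, adjusted p = 0.0161). KIF20A shares 268 bp (2.98% of its span) with BRD8, which had 141% of its counts and fell (log2 fold change −0.29, adjusted p = 0.00467). The other 10 overlapping genes, which did not pass, were FAM53C for CDC25C (396% of the member's counts), ENSG00000285920 for NUSAP1 (188%), ENSG00000284946 for PRC1 (114%), ITFG2 for FOXM1 (86.6%), EXOSC9 for CCNA2 (65.5%), MAD2L1-DT for MAD2L1 (57.6%), SLC35F6 for CENPA (54.3%), RGS5 for NUF2 (21.9%), ENSG00000261266 for PLK1 (14.5%) and MATCAP2 for ANLN (10.4%). The partners of NUSAP1, PRC1, NUF2 and CENPA cover 99.4%, 99.5%, 61.9% and 46.1% of the member's span, and those of the other 6 cover at most 12.1%. Of the 21 members with no such overlap, 11 rose and 1 fell, with a median log2 fold change of 0.21.

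Near-identical copies add a further limit for some of these genes. CDC20P1 held counts equal to 71.2% of those of CDC20, MAD2L1P1 56.1% of those of MAD2L1, KIF4B 55.4% of those of KIF4A, PTTG3P and PTTG2 31.5% and 19.8% of those of PTTG1, and AURKAP1 19.6% of those of AURKA. KIF4B had 1550 and 1430 raw counts in reporter-positive libraries 1 and 2, against 967 and 958 in the reporter-negative ones. In raw counts CDC20P1, MAD2L1P1 and PTTG3P were also higher in both reporter-positive libraries. Also in raw counts, AURKAP1 was lower in both and PTTG2 overlapped. Raw counts are not scaled to library size, and reporter-positive library 2 held the fewest counts in all (55894092). For AURKAP1 and PTTG2, whose counts lay close together, the raw order therefore gives no direction between the lines. How the counting split reads among such copies is not given in the sources used here. The levels and fold changes of CDC20, MAD2L1, KIF4A, PTTG1 and AURKA are therefore uncertain.

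Where a gene sits on its chromosome was set beside its fold change, using the 10 tested protein-coding genes on each side. KIF4A on chromosome X lay among neighbours with a median log2 fold change of 0.55, 12 of 20 of them higher and 0 lower. The median over 624 protein-coding genes of X was 0.32. CCNB2 on chromosome 15 lay among neighbours with a median of −0.40, 15 of 20 lower and 0 higher. The 4 members on chromosome 20, AURKA, CDC25B, TPX2 and UBE2C, hold 0 rises and 1 fall, and the median over that chromosome's 449 protein-coding genes was −0.27. Neighbours of UBE2C, TPX2 and AURKA had medians of −0.49, −0.24 and −0.21, and those of CDC25B 0.02. The members whose log2 fold change was below 0, CCNB2, TPX2 and UBE2C, thus all lay among neighbours that were lower in the reporter-positive line. MAD2L1 and CCNA2, close together on chromosome 4, had a neighbour median of 0.24 each. Of the 36 members, 35 were above the median of their own neighbours, FOXM1 being the exception, where 52.4% of the 9402 protein-coding genes of like level were above theirs. The median difference was 0.18, and the median of the neighbour medians was 0.01. CCNB2 and TPX2 stood only 0.13 and 0.02 above their neighbours, and KIF4A 0.21. The part of a gene's position in the members' values was not tested.

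**Figure D3:**
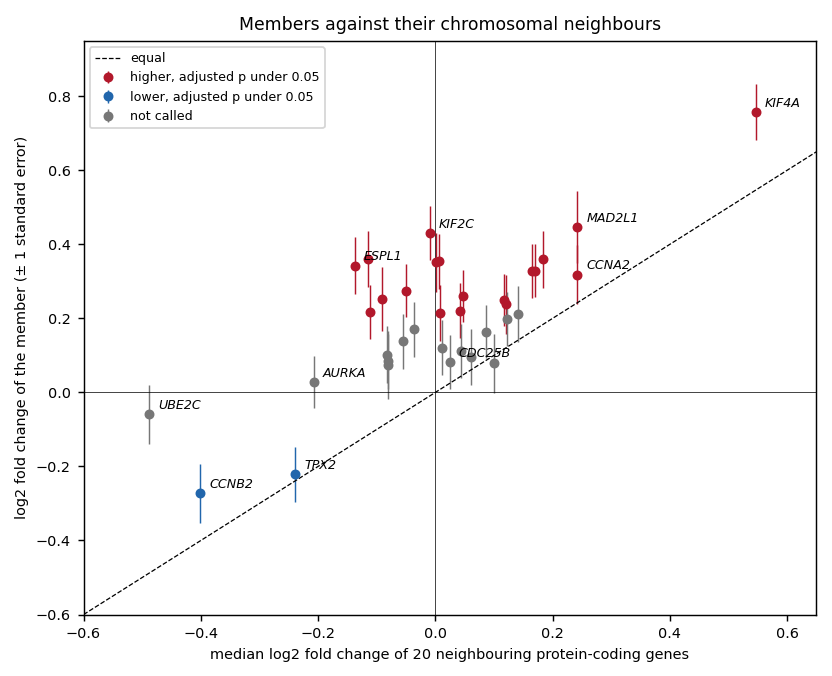
Log2 fold change of each member (vertical axis; bars are 1 standard error) against the median log2 fold change of its 20 neighbouring protein-coding genes (horizontal axis), with the line of equal values. All members but FOXM1 lie above that line, with KIF4A at the far right, at a neighbour median of 0.55, and CCNB2 and UBE2C at the far left, at −0.40 and −0.49.

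Genes of the same processes outside the 36 were counted in 8 lists. Beside their counts stand the shares already given, 11.6% higher and 10.9% lower over all tested genes and 17.6% and 17.8% over protein-coding genes of like level. Of 35 other kinetochore and checkpoint genes, 8 rose (22.9%) and 2 fell, with a median log2 fold change of 0.09. CENPI, a subunit of the inner kinetochore, had 23.5 ± 0.536 CPM in the reporter-positive and 14.4 ± 0.645 CPM in the reporter-negative line (SD, n = 2 each; log2 fold change 0.70, adjusted p = 2.12e-06). TRIP13, an ATPase that returns MAD2 to its inactive form, had a log2 fold change of 0.79 (adjusted p = 8.22e-06) and overlaps BRD9, which had 308% of its counts. CENPQ, also an inner kinetochore subunit, fell (−0.68, adjusted p = 2.02e-05), so the list did not move as a block. Of 31 other motors and microtubule factors, 8 rose (25.8%) and 2 fell, with a median of 0.08. Passing with the smallest adjusted p were HAUS7, an augmin subunit that branches microtubules, CKAP5, which adds tubulin to microtubule ends, and HMMR, a spindle-pole protein. Their log2 fold changes were 0.78, 0.47 and 0.67 (adjusted p = 2.27e-05, 1.19e-04 and 1.56e-04), and HAUS7 overlaps TREX2 and HMMR overlaps HMMR-AS1 (105% and 37.02% of their counts). Higher calls in the first list numbered 4 and 5 without reporter-negative library 1 or 2, and in the second 3 each time. With total count scaling they numbered 4 and 3. The shares of all tested genes called higher were then 7.16% and 7.45% without those libraries and 7.33% with total count scaling.

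Cohesin and condensin, the rings that hold sister chromatids and compact chromosomes, had 8 of 20 higher and 0 lower, with a median log2 fold change of 0.13. STAG2, a cohesin subunit, and NCAPG2 and NCAPD3, subunits of condensin II, had 0.67, 0.63 and 0.47 (adjusted p = 6.18e-07, 1.02e-06 and 3.44e-05). STAG2 overlaps TENM1 and NCAPD3 overlaps VPS26B (32.8% and 48.9% of their counts). Of 21 other G2/M kinases, phosphatases and partners, 8 rose and 0 fell, with a median of 0.15. MASTL, the Greatwall kinase that restrains a phosphatase in mitosis, GTSE1, a microtubule protein, and BORA, an activator of Aurora A, had 0.43, 0.30 and 0.38 (adjusted p = 1.64e-04, 0.00287 and 0.00461). MASTL overlaps YME1L1 and BORA overlaps DIS3, each with several times its counts (434% and 397%). Without reporter-negative library 1 or 2 the higher calls numbered 5 and 5 in the first list and 4 and 1 in the second, where GTSE1 was among those lost (adjusted p = 0.0932 and 0.0805). BORA was lost without reporter-negative library 2 (adjusted p = 0.0565). With total count scaling the first list had 5 higher and 1 lower, and the second 4 higher and 2 lower.

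Of the APC/C genes, 1 of 17 rose and 1 fell, with a median log2 fold change of −0.02. ANAPC2, its cullin-like catalytic subunit, had 38.9 ± 4.87 CPM in the reporter-positive and 53.9 ± 1.56 CPM in the reporter-negative line (SD, n = 2 each; log2 fold change −0.47, adjusted p = 2.63e-04). UBE2S, the enzyme that extends its ubiquitin chains, rose (0.38, adjusted p = 3.92e-04) and overlaps RPL28, which had 216% of its counts. Cytokinesis genes had 2 of 12 higher and 4 lower, with a median of −0.09. KIF13A, a kinesin of abscission, and CHMP4B and PDCD6IP, of the membrane-cutting machinery, fell by 0.70, 0.45 and 0.35 on the log2 scale (adjusted p = 4.04e-07, 1.03e-04 and 0.00147). PDCD6IP did not pass when reporter-negative library 1 or 2 was left out (adjusted p = 0.0772 and 0.0665), and with total count scaling 0 of these 12 genes were higher and 6 lower. Regulators of the MuvB, DREAM and NF-Y complexes had 1 of 15 higher and 3 lower, with a median of 0.01. RBL2 (p130, a repressor subunit of DREAM), NFYA (the CCAAT-binding subunit of NF-Y) and LIN37 (a MuvB subunit) had −0.35, −0.31 and −0.43 (adjusted p = 0.00140, 0.00378 and 0.0242). RBL2 overlaps AKTIP, NFYA overlaps OARD1 and LIN37 overlaps ENSG00000188223 (27.4%, 118% and 396% of their counts). Without reporter-negative library 1 or 2, NFYA (adjusted p = 0.0803 and 0.0506) and LIN37 (adjusted p = 0.164 and 0.110) no longer passed, and LIN37 was also lost without reporter-positive library 2 (adjusted p = 0.0937).

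Genes of DNA replication and S phase, which precede mitosis, had 13 of 32 higher and 2 lower, with a median log2 fold change of 0.19, close to that of the 36. RRM2, a subunit of the enzyme that makes deoxynucleotides, had 72.7 ± 3.56 CPM in the reporter-positive and 52.6 ± 0.546 CPM in the reporter-negative line (SD, n = 2 each; log2 fold change 0.47, adjusted p = 5.11e-05) and overlaps AC007240.1, with 113% of its counts. GINS1, part of the replicative helicase, rose (0.39, adjusted p = 0.00116). E2F1, a transcription factor of S phase genes, fell (−0.41, adjusted p = 5.97e-04). Of the genes named from the 8 lists, CENPI, HAUS7 and STAG2, which rose, lie on chromosome X, where the median over protein-coding genes was 0.32. On chromosome 20, with a median of −0.27, lie E2F1 and CHMP4B, which fell, and GINS1, which rose. CENPQ, NFYA and KIF13A, which fell, all lie on chromosome 6, where the median over the whole chromosome was −0.04. The neighbours of these list genes were not set beside them, and a median over a whole chromosome can hide a shift in part of it. The part of position in the values of these genes was not tested. Leaving out reporter-negative library 1 or 2 left 3 of the 32 S phase genes higher each time, and total count scaling left 2. Whether the mitosis genes and the S phase genes differ was not tested.

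**Figure D4:**
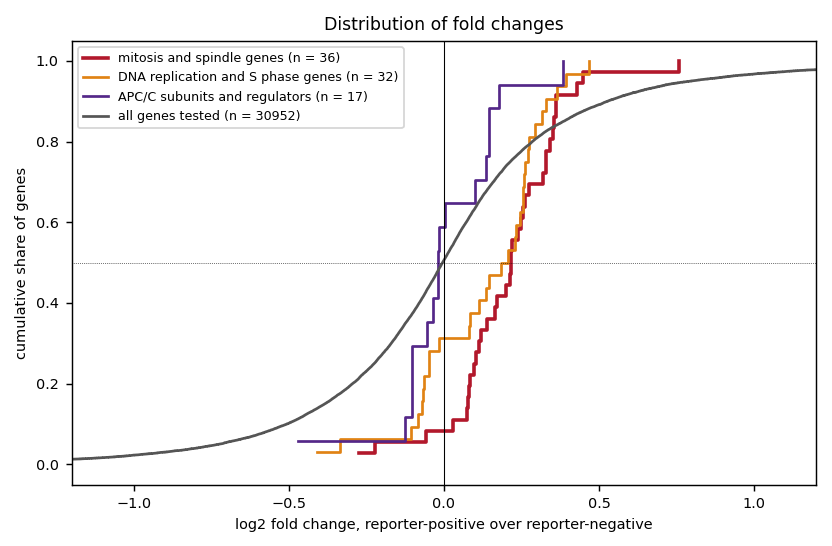
Cumulative share of genes (vertical axis) by log2 fold change, reporter-positive over reporter-negative (horizontal axis), for the 36 mitosis and spindle genes, 32 DNA replication and S phase genes, 17 APC/C genes and all tested genes. The curve of the 36 reaches its midpoint at 0.22 and that of the S phase genes at 0.19, to the right of the curves of the APC/C genes, at −0.02, and of all genes, at −0.005.

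The libraries held 62539034 and 55894092 counts in the reporter-positive line and 63034563 and 58429705 in the reporter-negative line, with rank correlations within a line of 0.992 and 0.993 (Spearman, across genes). Of 6 markers taken as high in MDA-MB-231, 5 were well expressed, with VIM, CD44, EGFR, CAV1 and AXL at 108 to 2712 CPM. The other, SPARC, had only 0.781 to 1.13 CPM. ESR1, PGR, CDH1, EPCAM, GATA3 and FOXA1 were at most 6.17 CPM. Some of these markers differed between the lines. VIM, vimentin, had 1256 and 1342 CPM in the reporter-positive libraries, against 2712 and 2623 CPM in the reporter-negative libraries (log2 fold change −1.04, adjusted p = 1.91e-07). CAV1 also fell (−0.49, adjusted p = 3.61e-05), while CD44 rose (0.23, adjusted p = 0.0373). FOXA1, a luminal transcription factor, was higher at 0.525 and 0.973 CPM in the reporter-positive libraries, against 0.110 and 0.0651 CPM in the reporter-negative libraries (log2 fold change 3.05, adjusted p = 1.17e-04), a low level in both lines. Their part in the members' values was not tested. The 10 markers of immune, endothelial and fibroblast cells summed to 114 and 99.3 CPM in the reporter-positive libraries, against 131 and 119 CPM in the reporter-negative libraries. Of these 10, 2 rose (KDR and LUM) and 2 fell (CD68 and PDGFRB), while CD3E had at most 7 counts in a library. PECAM1 alone gave 75.9 and 58.8 CPM in the reporter-positive libraries, against 88.8 and 72.96 CPM in the reporter-negative libraries. The part of other cell types in the members' values was not tested.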

How the data were processed

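The authors deposited raw read counts by Ensembl gene, with 1 column for each of 4 libraries. Per the submitters' processing notes, the tools were HISAT2, Bowtie2 and DESeq2 and the build hg19, with neither version nor role stated. How reads were counted, against which annotation and with what strandedness is not given in the sources used here. GENCODE release 29 on GRCh38 holds all 43714 IDs and gave symbols and positions. A check took the 1493 genes with at least 100 counts that lie inside a host gene without sharing an exon. For all 1493 the host's count was at least as high in all 4 libraries. Counts thus appear to cover whole gene spans on either strand, though pairs on the same and on opposite strands were not checked apart.

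Tests used edgeR 4.0.16 in R 4.3.3 with filterByExpr by line (count setting 10, total setting 15), TMM scaling, a robust quasi-likelihood F test of line with no covariate, and a threshold of 0.05 on p-values adjusted by Benjamini-Hochberg across all 30952 tested genes. CPM was computed with TMM-scaled library sizes. Standard errors were taken from the log2 fold change and its F value. A gene rose or fell only if it passed. The total counts of 55894092 to 63034563 make counting error small for the members, while the estimate of spread borrows from other genes. Libraries of 1 line were no copies of each other (chi-square over degrees of freedom 17.1 in the reporter-positive and 32.8 in the reporter-negative line). Whether the library numbers pair the lines is not in the labels. The differences between library 1 and 2 were uncorrelated between lines (r = 0.0079 across genes). With a single such difference per gene in each line, this cannot decide it. With the library number as a block, 13.5% of all tested genes rose and 13.1% fell, against 11.6% and 10.9% without it.

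The members and lists were chosen with earlier results of these data known. Values per library were given for the 20 called members with the smallest p and for CCNB1, CCNB2, CCNA2, CDK1, CDC20, PLK1, AURKA, AURKB, BUB1, TTK, FOXM1, TOP2A and MKI67. From each list of other genes, up to 3 with the smallest adjusted p among those passing were named. Neighbour, overlap and promoter comparisons, and the genes named in them, were chosen after values were seen. Promoters came from RefSeq on GRCh38.p14. Alternatives were RLE and total count scaling, 2 other count filters (no filter, and 1 CPM in 2 libraries), DESeq2 1.42.0, voom from limma 3.58.1, genes without an overlapping gene, the library number as a block, and leaving out each library. 1 marker of another cell type is not reported here. Tables and figures used Python 3.11.15, pandas 2.3.3, numpy 2.4.6 and matplotlib 3.10.9.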

Additional observations from a re-analysis of the deposited data

How the results depend on the processing

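With 2 libraries a line, single libraries decided many calls, while the fold changes moved less. The members called higher ranged from 7 to 27 and those lower from 0 to 2 when 1 library was left out, with a median log2 fold change of 0.15 to 0.26. Total count scaling gave 10 higher and a median of 0.13, RLE scaling gave 1 lower, and genes without an overlapping gene (17 members left) gave 7 higher and 1 lower, where 11.2% of all genes so tested rose and 11.1% fell. The other settings gave 17 to 21 higher and 2 lower, where 8.18% to 15.8% of all tested genes rose and 7.86% to 15.2% fell, the highest shares going with the filter at 1 CPM and its 21 members. DESeq2 called 18 higher. With the library number as a replicate block the test called 19 higher and 2 lower, with a median of 0.21, and no member's call changed. Members that changed sign did not pass in any fit: with total count scaling CDC25C was at −0.0098, AURKA at −0.0569, KIF20A at −0.0024 and FOXM1 at −0.0032. FOXM1 was at −0.0034 without reporter-positive library 1 and UBE2C at −0.1315 and 0.0174 without reporter-negative library 1 and 2.

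Genes without an overlapping gene gave, higher and lower, 0 and 1 for the APC/C, 3 and 2 for other kinetochore genes, 1 and 1 for other motors, 1 and 1 for cytokinesis, 2 and 0 for cohesin and condensin, 1 and 0 for other G2/M genes, 1 and 0 for MuvB and NF-Y regulators, and 4 and 2 for S phase. That setting left only 2, 13, 8, 2, 7, 7, 5 and 15 genes of these lists, in this order. In the same order, total count scaling gave 1 and 1, 4 and 3, 3 and 4, 0 and 6, 5 and 1, 4 and 2, 0 and 3, and 2 and 2. DESeq2 gave 0 higher for the MuvB and NF-Y regulators. Leaving out 1 library gave ranges, higher and lower, of 1 to 3 and 1 to 2 for the APC/C, 4 to 11 and 2 to 4 for kinetochore genes, 3 to 12 and 0 to 4 for motors, 0 to 3 and 2 to 6 for cytokinesis, 5 to 11 and 0 to 1 for cohesin and condensin, 1 to 11 and 0 to 3 for G2/M genes, 0 to 2 and 1 to 3 for MuvB and NF-Y, and 3 to 16 and 1 to 3 for S phase. Apart from the use of fewer genes or libraries, the cause was not tested.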
